A study of Mus musculus with 5 samples.

Results

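The immediate-early genes examined here were *Fos*, *Fosb*, *Fosl2*, *Jun*, *Junb*, *Jund*, *Egr1*, *Egr3*, *Atf3*, and *Ier2*, and their transcripts were read from RNA sequencing of sorted embryonic sympathetic neurons. The rule that picks their rows uses names and no measured value, but the list of names was drawn up with earlier results of these data known. Of these 10 genes, 9 were found among the 20224 genes of the count table by Ensembl identifier, and *Egr3* was not analysed here. *Fosb* had 0 counts in all 5 libraries and *Fosl2* had 15 in total, so that 7 of the 10 genes passed the filter on low counts and were tested along with 15032 genes in all.

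Immediate-early genes are transcribed within minutes of a stimulus, from factors that are already present in the cell and need no new protein. Growth factors, neurotrophins, membrane depolarisation, and stress reach them through kinase cascades that act on serum response factor and on CREB. Their products are mostly transcription factors: Fos and Jun proteins pair as AP-1, Egr1 and Egr3 are zinc finger factors, and Atf3 is a stress-induced factor that peripheral neurons switch on after axon injury. The transcripts are short-lived, and enzymatic dissociation and cell sorting are known to induce them in many tissues, which is why they are often read as a sign of handling as well as of neuronal activity.

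The neurons came from sympathetic ganglia of mouse embryos at E14.5, and the design addressed what the loss of *Hif1a*, the oxygen-regulated subunit of the transcription factor HIF-1, does to them. The 2 control libraries (replicates 5 and 6) were of genotype *Hif1a* loxP/+; *Isl1*Cre; *tdTomato*Ai14 with *Prph*-eGFP, and the 3 *Hif1aCKO* libraries (replicates 3, 4, and 5) were *Hif1a* loxP/loxP with the same other alleles. Both genotypes therefore carried Cre in 1 *Isl1* allele, and the control cells had 1 floxed *Hif1a* allele too, although the text on the series design describes controls without Cre. Recombination followed *Isl1*, which sensory and motor neurons also express, and the sort for tdTomato and eGFP took cells that had both Cre activity and an active peripherin promoter. Ganglia were digested with collagenase and trypsin for 7 minutes, the labels give about 3 hours between euthanasia and collection, and 100 cells went into each library.

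Total counts ranged from 8254211 to 9700887 per library, and counts were scaled by library size and TMM factor to give the normalized counts below. *Hif1a* itself had 2086 and 1584 normalized counts in controls and 2747, 1757, and 2135 in *Hif1aCKO* libraries; the deleted exon 2 is a small part of the gene, so these sums do not show the deletion. All 16 sympathetic neuron markers were tested, among them *Dbh*, the enzyme that makes noradrenaline, at 4923 to 6713 normalized counts. In *Hif1aCKO* libraries 11 of the 16 were lower (0 called, median log2 fold change -0.30). At an unadjusted p under 0.05 in edgeR's test there were 9 markers, 8 of them lower, against 7.67% of all genes tested. In such bulk samples fewer cells of a type and less RNA per cell cannot be told apart. Markers of glia and Schwann cell precursors (4 of 7 analysed) summed to 55.2 and 30.6 normalized counts in controls and to 1144, 46.9, and 51.6 in *Hif1aCKO* replicates 3, 4, and 5, with *Fabp7* at 993 in replicate 3 and *Sox10* at 0 counts in control replicate 5 and *Hif1aCKO* replicate 4. The macrophage markers *Csf1r* and *Adgre1* (2 of 8 analysed) summed to 46.9 and 83.5 in controls and 133 to 182 in *Hif1aCKO* libraries. Summed markers of sensory neurons (3 of 5 analysed), mesenchyme (5 of 9), endothelium (2 of 6), and erythroid cells (1 of 7) reached at most 38.0 in any library. *Xist*, read with the Y-linked *Ddx3y*, marked control replicate 5 and *Hif1aCKO* replicate 3 as female and the other libraries as male.

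RefSeq start sites with 250 bases before and 50 after were found for 7 of the 10 genes (build GRCm38.p6), but not for *Egr1*, *Egr3*, and *Ier2*. Shown here are *Fos* (chr12:85473640-85473939, plus strand), *Junb* (chr8:84978699-84978998, minus strand), and *Atf3* (chr1:191183284-191183583, minus strand), which among the tested genes with such a window differed most between the control libraries, beside the more even *Jun* (chr4:95052173-95052472, minus strand). Each reads 5′ to 3′ on the strand of the gene, and capitals mark matches to TGACG on either strand, the core letters of the site that CREB and ATF factors bind.
*Fos*: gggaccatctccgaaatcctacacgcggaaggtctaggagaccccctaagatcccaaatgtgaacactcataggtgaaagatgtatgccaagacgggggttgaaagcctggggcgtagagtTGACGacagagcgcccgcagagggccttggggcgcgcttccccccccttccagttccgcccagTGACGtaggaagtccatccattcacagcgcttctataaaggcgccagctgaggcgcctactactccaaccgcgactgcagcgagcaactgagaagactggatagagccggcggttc
*Junb*: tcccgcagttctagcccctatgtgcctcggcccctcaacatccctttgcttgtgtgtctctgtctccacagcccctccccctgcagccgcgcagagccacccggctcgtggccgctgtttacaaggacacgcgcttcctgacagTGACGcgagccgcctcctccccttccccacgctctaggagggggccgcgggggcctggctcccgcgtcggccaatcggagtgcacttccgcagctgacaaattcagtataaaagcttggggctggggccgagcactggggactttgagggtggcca
*Atf3*: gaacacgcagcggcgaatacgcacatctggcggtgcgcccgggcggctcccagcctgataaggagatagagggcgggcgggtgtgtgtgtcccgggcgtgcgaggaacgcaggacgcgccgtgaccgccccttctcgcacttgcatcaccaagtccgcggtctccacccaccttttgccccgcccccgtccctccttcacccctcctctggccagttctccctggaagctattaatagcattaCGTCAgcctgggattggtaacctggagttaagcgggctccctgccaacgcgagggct
*Jun*: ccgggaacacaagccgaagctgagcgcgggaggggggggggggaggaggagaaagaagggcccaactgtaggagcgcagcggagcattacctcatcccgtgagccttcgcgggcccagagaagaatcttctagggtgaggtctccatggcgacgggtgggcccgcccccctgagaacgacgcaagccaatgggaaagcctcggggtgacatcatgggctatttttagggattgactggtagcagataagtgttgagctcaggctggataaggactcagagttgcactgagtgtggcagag

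TGACG was found in 4 of the 7 windows (*Fos*, *Fosb*, *Junb*, and *Atf3*) and in 20.8% of all 32851 windows of the same length. In *Fos* the matches began at -129 and -66 from the start, in *Junb* at -106, and in *Atf3* at -7, on the reverse strand there. The full palindrome TGACGTCA, the AP-1 site TGANTCA, and the CArG box of serum response factor were searched on both strands and were in 0 of the 7 windows, against 1.79%, 7.81%, and 1.63% of all windows. GCGTG and ACGTG, the core letters that HIF-1 binds, were in 4 and 1 of the 7, against 32.4% and 19.6%, and GCGTG lay in *Fos*, *Fosb*, *Junb*, and *Atf3*. A match is a description of letters in these windows, and sites farther away were not searched. Not every window sits at the start of the gene as counted. That of *Jund* (chr8:70697489-70697788), the only one with ACGTG, ends before the counted gene begins at 70698949. That of *Atf3* lies inside the counted gene (191170296 to 191218039).

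The 9 genes fell into a higher and a lower set by their level per kilobase of annotated exon, taken as normalized counts per kb over the 5 libraries. *Ier2* (230.4 ± 37.0 SD), *Jun* (229.5 ± 23.8), and *Jund* (162 ± 76.8) stood above 84.6%, 84.5%, and 78.9% of all genes tested, and neighbours among them differed by less than the larger of their SDs. The level of *Jund* may be understated, as reads from the 52.6% of its exonic bases shared with an antisense gene may be uncounted. *Junb* (22.3 ± 8.46), *Fos* (17.5 ± 20.8), *Atf3* (16.6 ± 20.1), and *Egr1* (11.8 ± 7.93) stood above only 34.8%, 29.8%, 28.8%, and 22.3%, and their order among each other was not separable within these SDs. *Fosl2* followed at 0.310 ± 0.262.

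Between genotypes, 0 of the 7 tested genes were called in edgeR's quasi-likelihood test (adjusted p under 0.05, a log2 fold change beyond 0.3 in either direction, and a minimum of 50 for the mean normalized count), where 0.0% of all genes tested were called. At an unadjusted p under 0.05 there were again 0 of 7, against 7.67% of all genes, and DESeq2, edgeR's likelihood ratio test, and limma-voom also called 0 of 7. The *Hif1aCKO* libraries lay all above or all below both controls for 0 of the 7, against 25.7% of all genes. The log2 fold changes were positive for 4 and negative for 3 genes, with a median of 0.031 beside 0.012 over all genes tested, and the median was 1.12 without control replicate 5 and -0.24 without *Hif1aCKO* replicate 4. At this size (2 against 3) exact permutation of the libraries of any gene allows no p under 0.1.

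**Figure D1:**
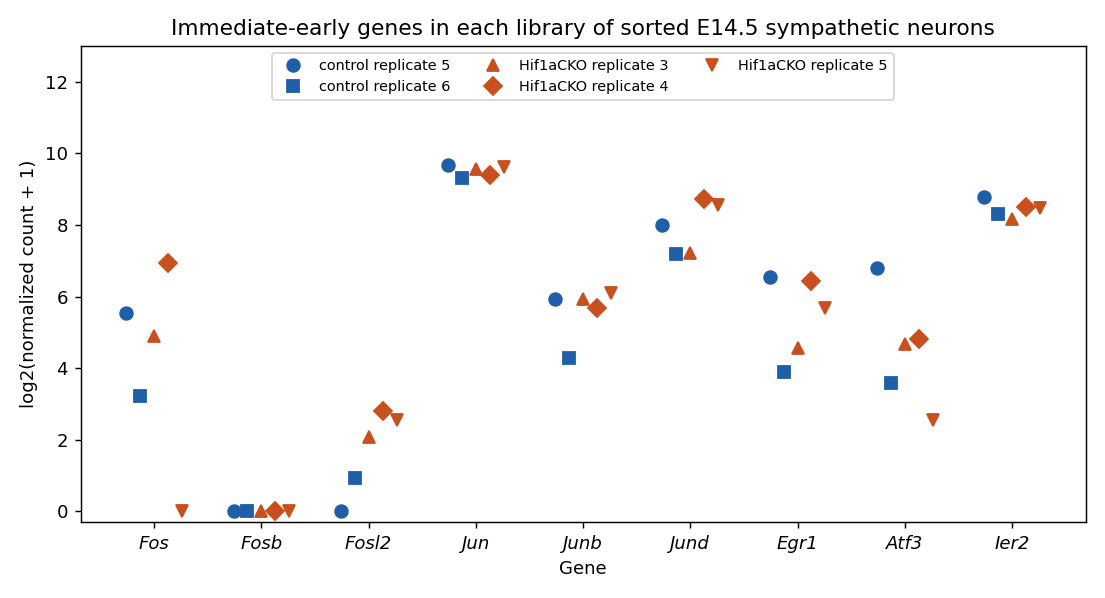
Normalized counts of the 9 genes on the log2(normalized count + 1) axis, with 1 point for each library (blue, control; orange, *Hif1aCKO*). *Jun* and *Ier2* points lie close together, *Fosb* lies at 0, and the points of *Fos*, *Egr1*, and *Atf3* spread within each genotype.

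*Fos* (ENSMUSG00000021250, chromosome 12, 85473890 to 85477273), the founding AP-1 subunit, had 45.8 normalized counts in control replicate 5 and 8.35 in control replicate 6. The *Hif1aCKO* libraries had 29.0, 123, and 0 (here and below in the order of replicates 3, 4, and 5). The highest and the lowest library were thus both *Hif1aCKO*, and both controls lay between them. The means were 27.1 ± 26.5 (SD, n = 2) and 50.6 ± 64.2 (SD, n = 3), a log2 fold change of 0.90 with a standard error of 1.52 (adjusted p = 0.930 in edgeR's fit). The sign rested on *Hif1aCKO* replicate 4: without it the log2 fold change was -0.90. A count of 0 in *Hif1aCKO* replicate 5 allows up to 0.334 CPM (3 counts), for counting error only.

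Transcripts of *Fosb* and *Fosl2*, other genes of the Fos family, were few or absent. *Fosb* (ENSMUSG00000003545, chromosome 7, 19302696 to 19310051), whose truncated product accumulates in chronically stimulated neurons, had 0 counts throughout, which allows 0.318 to 0.368 CPM by library. *Fosl2* (ENSMUSG00000029135, chromosome 5, 32135801 to 32157842), which encodes Fra-2, had 0 and 1 counts in controls and 3, 6, and 5 in *Hif1aCKO* libraries. Its groups did not overlap, but on 14 counts against 1 the ratio of rates was 9.63 with an exact 95% interval from 1.47 to 407 that covers counting error only, and the gene was below the filter. The macrophage markers (46.9 and 83.5 against 133 to 182 when summed) were likewise higher in every *Hif1aCKO* library, and their part in this difference was not tested. *Fosl1*, a further Fos gene outside the 10 examined and also below the filter, went the other way without overlap. It had 10.4 and 5.57 normalized counts in controls and 0, 2.00, and 0 in *Hif1aCKO* libraries.

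*Jun* (ENSMUSG00000052684, chromosome 4, 95049034 to 95052222), the AP-1 subunit that sympathetic neurons use in the death response to loss of nerve growth factor, was the steadiest of the tested genes. It had 814 and 632 normalized counts in controls and 758, 675, and 780.4 in *Hif1aCKO* libraries. The *Hif1aCKO* values all fell between the controls, and the means of 723 ± 129 (SD, n = 2) and 738 ± 55.5 (SD, n = 3) differed by less than either SD. The log2 fold change was 0.031 with a standard error of 0.18 (adjusted p = 0.984 in the same edgeR fit), and leaving out each library kept it between -0.15 and 0.22. Of the exonic bases of *Jun*, 7.28% lie across from the antisense gene *Junos*, which had 61.2 to 95.4 normalized counts.

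*Junb* (ENSMUSG00000052837, chromosome 8, 84974484 to 84978718), a Jun protein that often restrains c-Jun, had 60.4 and 18.6 normalized counts in controls and 60.0, 49.9, and 68.1 in *Hif1aCKO* libraries. Only control replicate 6 stood apart, and control replicate 5 lay inside the *Hif1aCKO* range. The fitted log2 difference was 0.59 with a standard error of 0.62 (adjusted p = 0.862 in the same edgeR fit), and it was 1.67 without control replicate 5 and -0.031 without control replicate 6. The gene *Prdx2* on the opposite strand covers 7.52% of its exonic bases.

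*Jund* (ENSMUSG00000071076, chromosome 8, 70698949 to 70700616), the Jun protein expressed in most resting cells, had 257 and 146 normalized counts in controls and 149, 426, and 375 in *Hif1aCKO* libraries. *Hif1aCKO* replicates 4 and 5 were above both controls, and replicate 3 was level with control replicate 6. The log2 fold change was 0.65 with a standard error of 0.46 (adjusted p = 0.765 in the same edgeR fit), and *Jund* was the only tested gene whose sign held under every alternative run. Without *Hif1aCKO* replicate 3 it was 0.99 (unadjusted p = 0.0216, adjusted p = 0.350 in edgeR's test). In that run 1773 of 14643 genes were at an unadjusted p under 0.05. Replicate 3 held most of the glial transcripts and was also the only female *Hif1aCKO* library, and the part of either in this difference was not tested.

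The antisense gene *Gm11175* covers 52.6% of the exonic bases of *Jund*. By default Rsubread ignores strand and leaves out reads that overlap several genes, so reads from the shared stretch may be uncounted. *Gm11175* had 90.6 and 45.4 normalized counts in controls and 41.8, 116, and 117 in *Hif1aCKO* libraries, low in the same libraries as *Jund*. The ratio of *Jund* to *Gm11175* counts stayed between 2.84 and 3.68. Whether reads of one transcript were assigned to the other gene was not tested.

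**Figure D2:**
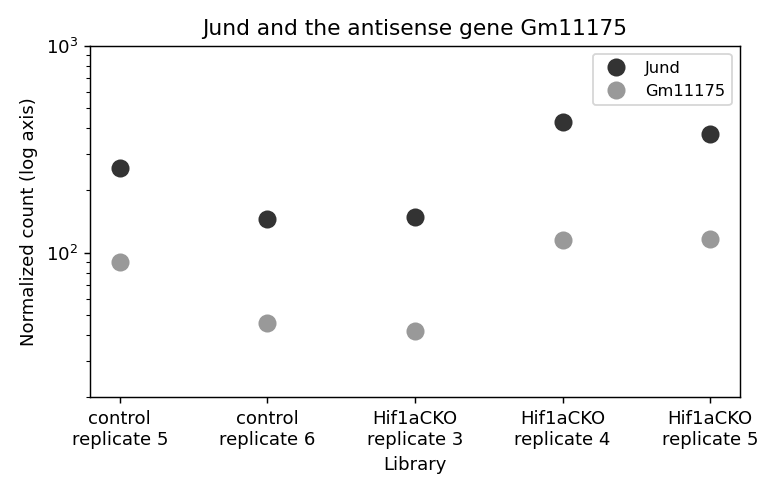
Normalized counts, on a log axis, of *Jund* (dark) and *Gm11175* (light) in the 5 libraries, with 1 point for each library. Both are lowest in control replicate 6 and *Hif1aCKO* replicate 3, and *Jund* lies 2.84 to 3.68 times above *Gm11175* in each library.

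*Egr1* (ENSMUSG00000038418, chromosome 18, 34859823 to 34864984), a zinc finger factor induced by neurotrophins and activity, had 92.7 and 13.9 normalized counts in controls and 22.5, 84.9, and 50.6 in *Hif1aCKO* libraries. The *Hif1aCKO* values lay inside the range of the 2 controls, and the means were nearly equal at 53.3 ± 55.7 (SD, n = 2) and 52.7 ± 31.2 (SD, n = 3). The log2 fold change of -0.012 had a standard error of 0.85 (adjusted p = 0.9996 in the same edgeR fit). It was 1.91 without control replicate 5 and -0.82 without control replicate 6.

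*Atf3* (ENSMUSG00000026628, chromosome 1, 191170296 to 191218039), the stress and injury factor, had the largest fitted difference. It had 111 and 11.1 normalized counts in controls and 24.7, 27.0, and 4.87 in *Hif1aCKO* libraries. Control replicate 5 was above all other libraries, whereas control replicate 6 lay within the *Hif1aCKO* range. The log2 fold change was -1.70 with a standard error of 1.03 (adjusted p = 0.725 in the same edgeR fit), and without control replicate 5 it was 0.75. Without control replicate 6 it was -2.57 (unadjusted p = 0.0233, adjusted p = 0.9995).

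*Ier2* (ENSMUSG00000053560, chromosome 8, 84661331 to 84662852), a small nuclear protein of the early growth response, had 436 and 318 normalized counts in controls and 286, 361, and 351 in *Hif1aCKO* libraries. The groups overlapped, and the means of 377 ± 83.6 (SD, n = 2) and 333 ± 40.8 (SD, n = 3) differed by less than the SD of the controls. The fitted log2 difference was -0.18 with a standard error of 0.24 (adjusted p = 0.902 in the same edgeR fit), and it was 0.064 without control replicate 5.

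**Figure D3:**
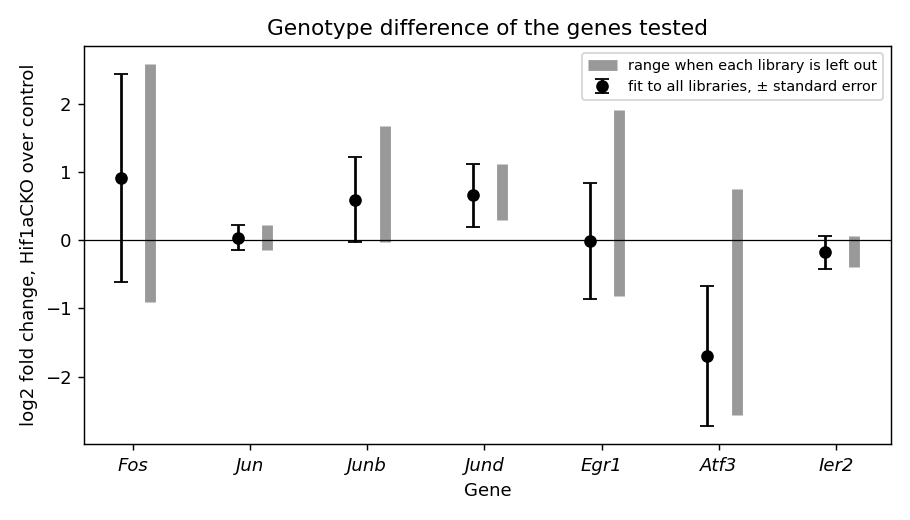
Log2 fold change of *Hif1aCKO* over control for the 7 tested genes, as fitted to all libraries (black, ± standard error) and as the range when each library is left out in turn (grey). The grey range of *Jund* alone stays on one side of 0, and those of *Fos*, *Egr1*, and *Atf3* span most.

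For each of the 7 tested genes, the 2 controls differed by more on the log2 scale than the genotypes did. This sets 2 single libraries against a difference of groups, which averaging makes smaller. The share of all genes with this order was not counted. The ratio of control replicate 5 to control replicate 6 was 10.0 for *Atf3*, 6.66 for *Egr1*, 5.49 for *Fos*, and 3.26 for *Junb*. For *Jund*, *Ier2*, and *Jun* it was 1.77, 1.37, and 1.29. All 7 tested genes were thus higher in control replicate 5, where 49.9% of all genes tested were. More than a 2-fold excess in log2 CPM was seen for 4 of the 7, against 7.72% of all genes tested and 17.5% of the 5768 genes with a mean normalized count under 100, to which these 4 belong. This pair of libraries was singled out after the values were seen, and it compares 2 libraries, not conditions.

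**Figure D4:**
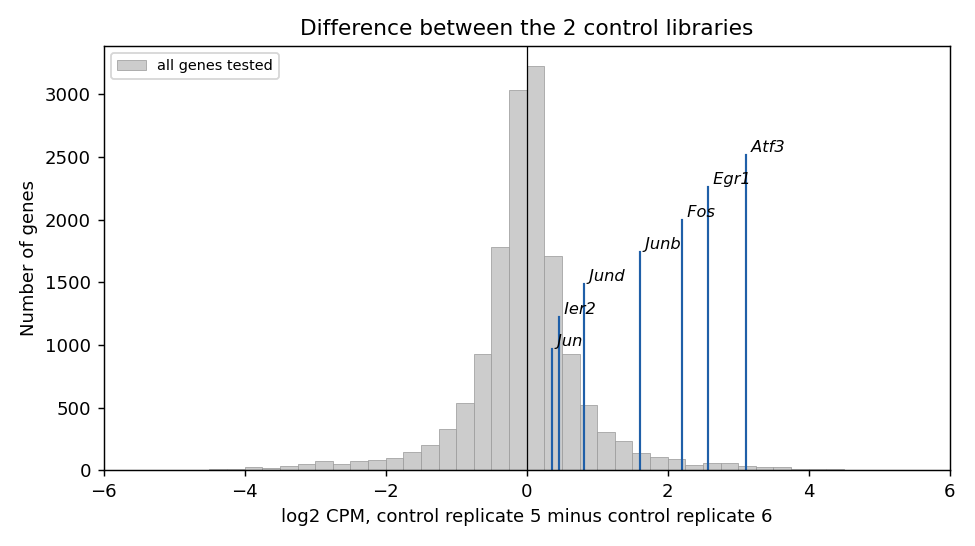
Difference in log2 CPM between control replicates 5 and 6, as a histogram over all genes tested (grey bars, number of genes) with the 7 immediate-early genes as blue lines whose heights carry no value. All 7 lines lie to the right of 0, from 0.36 for *Jun* to 3.11 for *Atf3*.

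The biological coefficient of variation in the edgeR fit was 1.11 for *Fos*, 0.792 for *Atf3*, 0.661 for *Egr1*, and 0.499 for *Junb*, while the genes with a mean under 100 had a median of 0.636. *Jund* (0.358), *Ier2* (0.208), and *Jun* (0.163) stood above, below, and below the median of 0.289 over all genes tested. Among the *Hif1aCKO* libraries, the highest was 5.54 times the lowest for *Atf3*, 3.77 times for *Egr1*, and 2.86 times for *Jund*, against 1.16 times for *Jun*. The genes did not all peak in the same library: *Fos*, *Jund*, *Egr1*, *Atf3*, and *Ier2* were highest in replicate 4, and *Jun* and *Junb* in replicate 5, where *Fos* and *Atf3* were lowest. Some peaks were slight, such as *Atf3* at 27.0 against 24.7 normalized counts in replicate 3, and *Ier2* at 361.5 against 351.3 in replicate 5.

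The controls also differ in sex, which the labels do not give. In the female pair, the *Hif1aCKO* library was lower than the control for all 7 genes, from a log2 difference of -2.09 for *Atf3* to -0.0085 for *Junb*. The control of this pair is replicate 5, the library in which all 7 genes exceeded control replicate 6. The share of all genes lower in this pair was not counted. Among the male libraries, both *Hif1aCKO* libraries were above the control for 5 of the 7 (*Jun*, *Junb*, *Jund*, *Egr1*, and *Ier2*). This opposite pattern was seen for 16.1% of all genes tested. As there is 1 control of each sex, sex and the difference between those 2 control libraries cannot be told apart.

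The wider set of 35 other immediate-early genes held 30 analysed and 21 tested genes. In *Hif1aCKO* neurons 10 were higher and 11 lower (median log2 fold change -0.086), and 0 were called. The groups did not overlap for 7 of the 21, against 25.7% of all genes tested. At an unadjusted p under 0.05 in edgeR's test there were 3 of the 21, against 7.67% of all genes tested. These were *Ifrd1* (log2 fold change 0.48), *Myc* (-0.70), the growth and cell cycle factor, and *Ier3* (-1.39), a survival factor, which had 51.0 and 53.8 normalized counts in controls and 18.2, 24.0, and 17.5 in *Hif1aCKO* libraries. The activity markers *Arc* and *Npas4* were at most at 31.3 (control replicate 5) and 5.99 (*Hif1aCKO* replicate 4) normalized counts in any library, and *Nr4a1* at 24.1 (control replicate 6). The excess of control replicate 5 was not seen over this set as a whole, since 8 of its 21 tested genes were higher there, with a median log2 difference of -0.15. Single genes did have it: 2 were over 2-fold higher in control replicate 5, among them *Nr4a2* (72.9 against 21.3 normalized counts), and 2 were over 2-fold higher in control replicate 6. *Klf6*, a factor linked to axon growth and the most abundant tested gene of the set, had 1236 and 1662 normalized counts in controls and 1475, 1058, and 1089 in *Hif1aCKO* libraries.

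Of 15 feedback and mRNA decay genes 9 were tested, with 7 higher, 2 lower, 0 called, and a median log2 fold change of 0.35. *Zfp36*, which binds AU-rich transcripts such as that of *Fos* and speeds their decay, had 8.33 and 5.57 normalized counts in controls and 40.7, 16.0, and 51.6 in *Hif1aCKO* libraries (log2 fold change 2.36, unadjusted p = 0.0286, adjusted p = 0.621 in edgeR's test). The same libraries held more of the macrophage markers (133 to 182 against 46.9 and 83.5), whose part in this difference was not tested. *Dusp1*, a phosphatase of MAP kinases and itself an immediate-early gene, was the most abundant at 634 to 1184 normalized counts, highest in control replicate 5. *Dusp6* and *Zfp36l1* had 55.8 and 20.4 normalized counts in *Hif1aCKO* replicate 3 and at most 0.973 elsewhere. That library also held most of the glial transcripts (*Fabp7* at 993), and their part in these values was not tested.

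Upstream kinases and factors were all tested (34 genes), 17 higher and 17 lower with a median of -0.00017 and 0 called. *Map2k1*, a kinase of the growth factor cascade, had a log2 fold change of -0.52 (adjusted p = 0.599 in edgeR's test). *Crebbp*, the coactivator of CREB, was the most abundant, at 2501 to 3159 normalized counts. The groups did not overlap for 11 of the 34 genes, near the share over all genes. Of the other bZIP partners 12 genes were tested, 7 higher and 5 lower with a median of 0.13, and none reached an unadjusted p under 0.05.

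Late activity-regulated genes (8 tested, 6 higher, median 0.39) and heat shock genes (11 tested, 3 higher, median -0.17) also had 0 called and 0 at an unadjusted p under 0.05. The stress-inducible *Hspa1a*, another gene that dissociation induces, had 11.5 and 7.42 normalized counts in controls and 10.7, 3.99, and 0 in *Hif1aCKO* libraries, while the constitutive *Hsp90ab1* had 19116 to 23407. Of 13 axon injury genes 3 were higher and 10 lower, with a median of -0.39. At an unadjusted p under 0.05 in edgeR's test there were 3, all lower, against 7.67% of all genes tested. These were *Ecel1*, a peptidase induced by nerve injury (log2 fold change -1.81, adjusted p = 0.446 in edgeR's test and 2.59e-05 in DESeq2), *Stat3* (-0.66), and *Gap43*, a growth cone protein (-0.32). *Ecel1* was the 1 gene of this list that DESeq2 called, among 60 called of 20171 genes over the whole table. These 3 genes are known for moving with *Atf3* after injury. Each was highest in control replicate 6, where *Atf3* was low. The log2 difference of control replicate 5 minus control replicate 6 was -0.56 for *Ecel1*, -0.21 for *Gap43*, and -0.055 for *Stat3*, which was thus nearly level. Each of the 3 was also higher in both controls than in any *Hif1aCKO* library, which their choice by p favours. The order did not hold for the whole list: 8 of its 13 genes were higher in control replicate 5 than in control replicate 6, against 49.9% of all genes tested. *Arg1*, 1 of these 8, had 375 and 59.4 normalized counts in controls and 121, 127, and 109 in *Hif1aCKO* libraries.

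The genes nearest to each pattern were found among genes with a mean of 50 or more normalized counts by the root mean square difference of centred log2 CPM over the 5 libraries. For *Egr1* these were *Gm42446* (0.237), *Gm10400* (0.340), and *Nfatc3* (0.389), and *Jund* ranked 60 of 10841 at 0.596. For *Atf3* they were *Faim2* (0.538), *Hspa1l* (0.663), and *Tph2* (0.664). For *Fos* they were *Shld2* (0.938), *Tm4sf4* (0.967), and *Angel1* (1.01), so that even the nearest gene was about a unit of log2 away. None of these 9 genes is an immediate-early gene of the lists used here. Genes under that mean, among them *Fos* (41.2) and *Atf3* (35.8), were not searched and could not appear as neighbours. The absence of immediate-early genes was therefore partly set by this minimum.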

How the data were processed

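RNA-seq of sorted sympathetic neurons comprised 2 control and 3 *Hif1aCKO* libraries. The authors trimmed reads (cutadapt 1.18, Trimmomatic), removed ribosomal and vector reads (Bowtie 1.2.2, SortMeRNA), mapped to GRCm38 with STAR 2.7.0c, and counted uniquely mapped reads per gene with Rsubread. The deposited values are these raw counts, with no normalization. Gene names, positions, and exonic lengths were taken from GENCODE M21, which names 20195 of 20224 identifiers.

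Counts were normalized by TMM and tested with edgeR 4.0.16 (filterByExpr, quasi-likelihood test, Benjamini-Hochberg adjustment over the 15032 genes kept) in R 4.3.3. Normalized counts are scaled to the mean effective library size, and log2 CPM used a prior count of 2. The pipeline was tested on simulated data. The replicate numbers of the genotypes have only number 5 in common, and no replicate block was used. No pair of libraries agreed within sampling noise (chi-square per degree of freedom 14.2 to 35.1). P-values measure the spread between these libraries, and intervals and floors cover counting error only, since reads carried no molecular identifiers. Alternatives were RLE and upper-quartile factors, DESeq2 1.42.0, the likelihood ratio test, limma-voom (limma 3.58.1), other filters, a sex term, and leaving out each library.

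The genes and lists were chosen with earlier results of these data known. Up to 4 genes of smallest p and the most abundant were named from most lists, and others were chosen after their values were seen. From the late activity-regulated genes and the other bZIP partners none was named, and the cell type markers did not follow this rule. In the upstream list, a gene under this rule is not reported here. Sequences are from RefSeq. Tables and plots used Python 3.11.15.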

Additional observations from a re-analysis of the deposited data

Results flagged for a closer look

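In *Jun*, *Junb*, *Jund*, *Egr1*, and *Ier2*, the *Hif1aCKO* library was lower than the control among female libraries, and both *Hif1aCKO* libraries were higher than the control among male libraries. The difference between these differences (male minus female, log2) was 4.31 for *Egr1*, 2.25 for *Jund*, 1.67 for *Junb*, 0.77 for *Ier2*, and 0.31 for *Jun*. In edgeR's quasi-likelihood test of the interaction, which had 1 residual degree of freedom, the adjusted p was 0.995 for *Egr1*, *Jund*, *Junb*, and *Ier2* and 0.9995 for *Jun*. Before adjustment it was 0.0182 for *Egr1* and 0.00991 for *Jund*, and the genes were singled out for this pattern. The female comparison rests on 1 library a side and the male control is 1 library, so this pattern cannot be told apart from a difference between the 2 control libraries, and *Junb* was level in the female pair (60.4 and 60.0 normalized counts).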

How the results depend on the processing

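Across all alternatives 0 of the tested immediate-early genes were called. Over all genes, the calls were 0 in the main test, 60 with DESeq2, 40 with the likelihood ratio test, and 4 without control replicate 5. With each library left out in turn, the number of members at an unadjusted p under 0.05 was 0 to 1 (*Atf3* without control replicate 6, *Jund* without *Hif1aCKO* replicate 3), and their median log2 fold change was -0.24 to 1.12. Of 89 alternative values of single genes 13 reversed in sign. *Egr1* did so with upper-quartile factors (0.027), limma-voom (0.44), and the sex term (0.25), and *Fos* with limma-voom (-0.73). Leaving out each library gave ranges of -0.90 to 2.58 for *Fos*, -0.15 to 0.22 for *Jun*, -0.031 to 1.67 for *Junb*, -0.82 to 1.91 for *Egr1*, -2.57 to 0.75 for *Atf3*, and -0.40 to 0.064 for *Ier2*. The cause of these reversals was not tested. Where 1 control is left, it is assumed to vary like the other libraries. *Fos* and *Atf3* gave no value under a minimum of 10 counts in every library. Totals of 174 to 262 counts over the 5 libraries for *Atf3*, *Fos*, *Junb*, and *Egr1* limit what could be detected. No paired analysis was possible because the genotypes share only 1 replicate number.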
